A study of Homo sapiens with 4 samples.

Results

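MicroRNA host genes are transcribed into long noncoding RNAs that carry microRNA hairpins in an exon or an intron. The 7 host genes described here are MIR17HG, MIR22HG, MIR31HG, MIR100HG, MIR155HG, MIR210HG and MIR503HG, chosen by name from the 58226 gene IDs that all count files share. RNA-seq had been performed on U87MG, an established human glioblastoma cell line, and on R-U87MG, its temozolomide (TMZ)-resistant derivative, which was kept in 50 μM TMZ. R-U87MG cells had received non-targeting siRNA (si-NC) or siRNA against HDAC6, a cytoplasmic lysine deacetylase. Parental U87MG cells had received si-NC or siRNA against the long noncoding RNA LINC00461. RNA was extracted 72 h after the siRNA was given, and each of the 4 conditions is 1 library, so no difference below has a replicate check and no p-value is given.

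In the nucleus the enzyme DROSHA cuts the hairpin out of the host transcript, DICER1 trims it in the cytoplasm, and an Argonaute protein takes up one strand as the mature microRNA. The mature strand pairs with messenger RNAs mainly through its seed, bases 2 to 8 from its 5′ end, and lowers their stability and translation. Of the 7 hosts, MIR17HG is a target of MYC and carries a cluster linked to proliferation. MIR210HG carries the microRNA best known as a response to hypoxia, and MIR155HG carries one that is abundant in activated immune cells.

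The hosts carry 15 precursor hairpins in the GENCODE annotation, and the main mature strands are shown because their seeds group the hosts into families. They are given 5′ to 3′ as RefSeq lists them on GRCh38.p14, with the seed in capitals. MIR17HG, at chr13:91347820-91354579 on the plus strand, holds 6 precursors.
hsa-miR-17-5p: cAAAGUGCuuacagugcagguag
hsa-miR-20a-5p: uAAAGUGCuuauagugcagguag
hsa-miR-18a-5p: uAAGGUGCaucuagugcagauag
hsa-miR-19a-3p: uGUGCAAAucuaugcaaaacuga
hsa-miR-19b-3p: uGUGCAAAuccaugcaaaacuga
hsa-miR-92a-3p: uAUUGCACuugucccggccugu

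MIR100HG, at chr11:122028327-122556721 on the minus strand, spans 528395 bases and holds 3 precursors, 1 from each of 3 seed families.
hsa-miR-100-5p: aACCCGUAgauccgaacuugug
hsa-let-7a-5p: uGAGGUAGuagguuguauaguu
hsa-miR-125b-5p: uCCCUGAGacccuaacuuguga

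MIR503HG, at chrX:134543337-134546632 on the minus strand, holds MIR503 and overlaps part of MIR424. Bases 2 to 7 of their mature strands are the same.
hsa-miR-424-5p: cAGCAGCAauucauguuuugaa
hsa-miR-503-5p: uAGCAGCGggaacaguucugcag

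The other 4 hosts carry 1 precursor each. They are MIR22HG at chr17:1711493-1717174 (minus strand), MIR31HG at chr9:21455642-21559669 (minus strand), MIR155HG at chr21:25561909-25575168 (plus strand) and MIR210HG at chr11:565660-568457 (minus strand). No other annotated human mature microRNA in the RefSeq table has the seed of any of these 4 (the table used here may be incomplete).
hsa-miR-22-3p: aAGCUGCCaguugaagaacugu
hsa-miR-31-5p: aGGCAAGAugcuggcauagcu
hsa-miR-155-5p: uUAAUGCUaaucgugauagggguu
hsa-miR-210-3p: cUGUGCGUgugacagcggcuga

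The 15 mature strands have 13 different seeds. Within MIR17HG, miR-17-5p and miR-20a-5p share one, and miR-19a-3p and miR-19b-3p share another. These libraries report the host transcript and not the microRNA. All 15 precursor genes were at 0 in all 4 libraries, and of 1872 annotated microRNA genes in the files 2 had any fragment and 0 reached 10 fragments. No statement below is therefore about the amount of a mature microRNA.

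The libraries held 16639551 (R-U87MG si-NC), 12596072 (R-U87MG si-HDAC6), 20027866 (U87MG si-NC) and 17777046 (U87MG si-LINC00461) fragments in genes. Where 4 values follow a gene below, they stand in this order of libraries. The siRNA targets were lower in their own libraries, with HDAC6 at 296 and 67 fragments in R-U87MG si-NC and si-HDAC6, and LINC00461 at 363 and 73 fragments in U87MG si-NC and si-LINC00461. Of the glial and mesenchymal markers, VIM, CD44 and TNC were abundant in every library, whereas GFAP had 0 to 13 fragments, SOX2 0 to 4 and S100B 0 to 4. NES had 441 to 854 fragments, and OLIG2 stood at 92, 115, 15 and 18, higher in R-U87MG than in U87MG (log2 ratio 2.58, 1.82 to 3.51). The summed level of 5 immune cell markers was at most 0.953 CPM (fragments of the gene per 1000000 fragments in genes) in a library. The summed level of 4 endothelial markers was 3.67, 2.62, 3.40 and 26.0 CPM, of which PECAM1 stood at 27, 16, 52 and 433 fragments, VWF at 26, 16, 8 and 16, CDH5 at 6, 1, 7 and 14, and CLDN5 at 0 to 2. The summed level of 4 neuronal markers was 28.5, 22.7, 61.2 and 127 CPM, of which SNAP25 stood at 435, 265, 1075 and 2057 fragments and SYT1 at 38, 19, 146 and 195, with RBFOX3 and SLC17A7 at 0 to 3. The part of these marker levels in the results below was not tested. Gene IDs were named from GENCODE 29 (GRCh38), the same annotation that gives the host positions.

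MIR100HG was the one abundant host, MIR155HG and MIR17HG were detected at low level, MIR503HG lower still, and MIR31HG, MIR210HG and MIR22HG had 0 to 3 fragments in each library. MIR100HG held between 95.1% and 98.0% of all fragments of the 7 genes, a share not corrected for length. Its merged exons span 19385 bases, against 745 (MIR31HG) to 3492 (MIR17HG) for the others. As CPM per kilobase of exon (FPKM), averaged over the 4 libraries, MIR100HG stood at 5.24, MIR155HG at 0.862, MIR17HG at 0.393, MIR503HG at 0.258, MIR31HG at 0.0356, MIR210HG at 0.0289 and MIR22HG at 0. MIR155HG lay above MIR17HG on this scale in each library, at 0.811 against 0.157 FPKM in U87MG si-NC and at 0.893 against 0.682 FPKM in R-U87MG si-HDAC6. In R-U87MG si-NC and si-HDAC6 this order rests on 24 and 18 fragments of MIR155HG against 37 and 30 of MIR17HG. It was not resolved there. The order of MIR31HG and MIR210HG rests on 2 and 5 fragments in all and was not resolved at this depth.

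**Figure D1:**
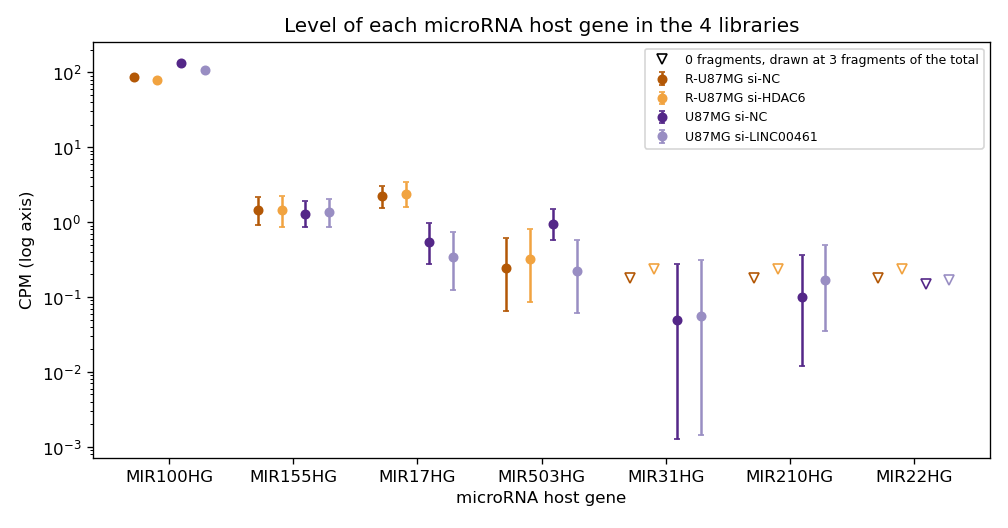
Level of each microRNA host gene in CPM (vertical log axis) in the 4 libraries (colours), with bars for the exact 95% counting interval and open triangles for genes at 0, drawn at the level of 3 fragments. MIR100HG sits between 79.7 and 135 CPM, MIR17HG is above 2 CPM in both R-U87MG libraries and below 1 CPM in both U87MG libraries, and MIR22HG has 0 fragments throughout.

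MIR100HG, the host of miR-100, let-7a-2 and miR-125b-1, ranked between 6 and 12 among 14452 annotated long noncoding RNAs by CPM in each library. That rank is not corrected for length and so favours long genes. It stood at 1433 fragments (86.1 CPM, 95% interval 81.7 to 90.7) in R-U87MG si-NC and at 1004 fragments (79.7 CPM, 74.9 to 84.8) in R-U87MG si-HDAC6. In U87MG it stood at 2704 fragments (135 CPM, 130.0 to 140.2) with si-NC and at 1880 fragments (106 CPM, 101.0 to 110.6) with si-LINC00461. Both U87MG libraries were above both R-U87MG libraries. All intervals are exact binomial (Clopper-Pearson) intervals that cover counting error of the library and nothing of the spread between cultures. The gene has 39 annotated transcripts whose exons merge to 19385 bases, and the values do not say which of them was made.

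MIR155HG, first described as the BIC transcript of lymphoma, had close to the same level in every library. It stood at 24 fragments in R-U87MG si-NC (1.44 CPM, 0.924 to 2.15), 18 in R-U87MG si-HDAC6 (1.43 CPM, 0.847 to 2.26), 26 in U87MG si-NC (1.30 CPM, 0.848 to 1.90) and 24 in U87MG si-LINC00461 (1.35 CPM, 0.865 to 2.01). The 4 intervals overlap one another almost whole, and differences of less than about 2-fold could not be resolved from so few fragments.

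MIR17HG, the host of the miR-17 to miR-92 cluster, divided the libraries by cell line. It stood at 37 fragments in R-U87MG si-NC (2.22 CPM, 1.57 to 3.06), 30 in R-U87MG si-HDAC6 (2.38 CPM, 1.61 to 3.40), 11 in U87MG si-NC (0.549 CPM, 0.274 to 0.983) and 6 in U87MG si-LINC00461 (0.338 CPM, 0.124 to 0.735). The intervals of the R-U87MG libraries do not overlap those of the U87MG libraries. Of the stretches of 50 bases in its transcripts, 5.13% also occur in another annotated gene, in each case one of its own precursors, so a fragment there could have been divided between the host and the hairpin.

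MIR503HG, an X-linked host next to HPRT1, stood at 19 fragments in U87MG si-NC (0.949 CPM, 0.571 to 1.48) and at 4 fragments in each of the other libraries. These were 0.240 CPM (0.0655 to 0.615) in R-U87MG si-NC, 0.318 CPM (0.0865 to 0.813) in R-U87MG si-HDAC6 and 0.225 CPM (0.0613 to 0.576) in U87MG si-LINC00461. U87MG si-NC was thus the highest library, and its interval overlaps that of each of the others. HPRT1, a purine salvage enzyme, stood at 626, 455, 626 and 607 fragments in R-U87MG si-NC, R-U87MG si-HDAC6, U87MG si-NC and U87MG si-LINC00461.

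The 3 remaining hosts were at or near 0, and their surroundings differed. A count of 0 has an exact 95% upper bound of 0.222, 0.293, 0.184 and 0.208 CPM in R-U87MG si-NC, R-U87MG si-HDAC6, U87MG si-NC and U87MG si-LINC00461. The floor used below, 3 fragments, corresponds to 0.180, 0.238, 0.150 and 0.169 CPM.

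MIR31HG had 0 fragments in both R-U87MG libraries and 1 fragment in each U87MG library (upper bounds of 0.278 CPM with si-NC and 0.313 CPM with si-LINC00461). It lies at 9p21 among the type I interferon genes and close to the tumour suppressor gene CDKN2A, and U87MG is a line known for loss of CDKN2A. Of 13 other genes annotated within 100 kb, 0 had a fragment in any library. Of 23 protein-coding genes within 500 kb, 0 reached 10 fragments in any library, against 65.7% of all 19791 protein-coding genes in the files. The nearest protein-coding genes that did reach 10 were SLC24A2, 1668.714 kb away at lower coordinates, and ELAVL2, 2130.435 kb away at higher coordinates, with 19 and 5 protein-coding genes between them and MIR31HG. CDKN2A stood at 1, 0, 5 and 9 fragments and MTAP, an enzyme of methionine salvage, at 4, 0, 4 and 7. DNA was not measured. Of the 50-base stretches of MIR31HG, 36.9% also occur in the interferon pseudogene IFNWP19 when both strands are searched. IFNWP19 overlaps MIR31HG on the opposite strand, so the MIR31HG count is uncertain.

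MIR22HG was listed at 0 in all 4 libraries, but its neighbours were not silent. WDR81, which overlaps it on the opposite strand, stood at 196, 153, 143 and 161 fragments, and SMYD4, 62311 bases away, stood at 450, 324, 386 and 300. Of 23 protein-coding genes within 500 kb, 14 reached 10 fragments in a library. PRPF8, the neighbouring gene that encodes a core protein of the spliceosome, was at 6, 8, 1 and 0 fragments. POLR2A, which encodes the largest subunit of RNA polymerase II and lies elsewhere on chromosome 17, was at 10, 3, 2 and 7 fragments. Every growing cell uses both, and the other 8 genes of a list of 10 spliceosome and polymerase genes, chosen after these values were seen, had between 293 and 7524 fragments. In another annotated gene occur 1.82% of the 50-base stretches of PRPF8, 0.325% of those of POLR2A and 1.04% of those of MIR22HG. Copies outside annotated transcripts were not searched, so shared sequence as a source of the low counts was not tested. A listed 0 for MIR22HG can therefore be a failed estimate rather than a level, and no absence is read from it.

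MIR210HG had 0 fragments in both R-U87MG libraries, 2 in U87MG si-NC (upper bound 0.361 CPM) and 3 in U87MG si-LINC00461 (upper bound 0.493 CPM). Every one of these is at or under the floor, so no fold is given. Its neighbours RASSF7, a Ras-association family member 1639 bases away, and PHRF1, a PHD and RING finger protein 8029 bases away, were detected in each library. RASSF7 stood at 41, 35, 122 and 92 fragments and PHRF1 at 19, 39, 200 and 34. Of 45 protein-coding genes within 500 kb, 33 reached 10 fragments.

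**Figure D2:**
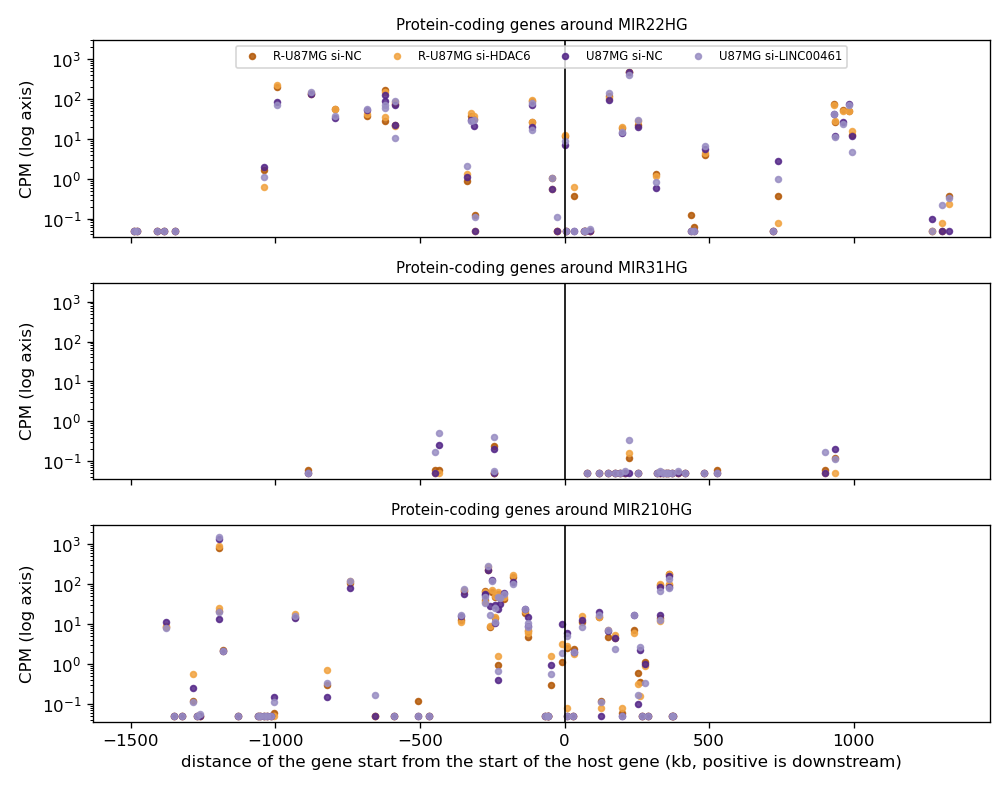
CPM (vertical log axis) of the protein-coding genes around MIR22HG, MIR31HG and MIR210HG in the 4 libraries (colours), by the distance in kb of each gene's start from the start of the host gene (black line). Genes at 0 are drawn at the bottom of each panel; 0 of 23 coding genes within 500 kb of MIR31HG reached 10 fragments, against 14 of 23 around MIR22HG and 33 of 45 around MIR210HG.

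The first comparison asks what depletion of HDAC6 did to the hosts in R-U87MG. None of the 3 hosts that could be compared differed 2-fold. Ratios were taken after TMM normalization (weighted trimmed mean of log ratios) with 0.5 added to each count, on a log2 scale, and were compared for genes averaging 1 CPM or more over the pair. MIR100HG was the closest to a difference, at 1004 against 1433 fragments, a log2 ratio of −0.12 whose interval runs from −0.24 to −0.004. MIR17HG, at 30 against 37 fragments, had a log2 ratio of 0.09 (−0.66 to 0.82), and MIR155HG, at 18 against 24, one of −0.01 (−0.99 to 0.92). With 0 of 3 hosts beyond 2-fold, the background was 1.44% of 13120 genes (0.694% higher and 0.747% lower), and the median log2 ratio was −0.01 for the 3 hosts and −0.01 for all genes. MIR503HG had 4 fragments in each library.

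The second comparison asks the same of LINC00461 depletion in U87MG, where many more genes differed 2-fold but neither of the 2 hosts that could be compared did. MIR100HG, at 1880 against 2704 fragments, had a log2 ratio of −0.34 (−0.42 to −0.25), an interval wholly below 0. MIR155HG, at 24 against 26 fragments, had a log2 ratio of 0.07 (−0.79 to 0.93). Of these 2 hosts, 0 were beyond 2-fold against 13.6% of 13210 genes (5.42% higher and 8.17% lower), and the median log2 ratio was −0.13 for the hosts and 0.00 for all genes. Below the minimum of 1 CPM, MIR503HG stood at 4 against 19 fragments, a log2 ratio of −1.93 (−4.08 to −0.47), and MIR17HG at 6 against 11, a log2 ratio of −0.64 (−2.41 to 0.87). The interval for MIR503HG lies wholly below 0 but does not lie wholly beyond 2-fold, and its log2 ratio was −0.91 with the libraries thinned to the smallest total and −1.23 with a pseudocount of 5.

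The third comparison sets the si-NC libraries of R-U87MG and U87MG side by side. MIR17HG was higher in R-U87MG, MIR100HG and MIR503HG were lower, and MIR155HG was not distinguishable. MIR17HG, at 37 against 11 fragments, was 3.27-fold higher, a log2 ratio of 1.71 (0.75 to 2.87), and was the one host past 2-fold. It passed the minimum of 1 CPM through its level in R-U87MG (2.22 CPM), its level in U87MG being 0.549 CPM, so its place among the compared genes is not independent of the direction of its ratio. MIR100HG, at 1433 against 2704 fragments, had a log2 ratio of −0.91 (−1.01 to −0.82). That is a level of 0.531 of the U87MG value, just inside the 2-fold limit. MIR155HG, at 24 against 26 fragments, had a log2 ratio of −0.11 (−0.98 to 0.75). MIR503HG, at 4 against 19 and under the 1 CPM minimum, had a log2 ratio of −2.11 (−4.26 to −0.65), which was −1.55 when thinned and −1.41 with a pseudocount of 5.

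With 1 of 3 hosts beyond 2-fold in that comparison, the background was 26.2% of 13349 genes (11.2% higher and 15.0% lower), and with a minimum mean of 5 CPM the count of hosts was 0, so nothing is read from it. The median log2 ratio was −0.11 for the hosts and 0.02 for all genes. Scaling by total counts moved the median of all genes to 0.28, and the 2-fold split from 1494 higher and 2008 lower to 2399 higher and 1494 lower. MIR100HG was then at −0.65, still below that median. The libraries of the 2 cell lines were scaled by the authors as separate pairs, so line and pair cannot be told apart, and R-U87MG differs from U87MG both in its selection and in the TMZ in its medium.

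**Figure D3:**
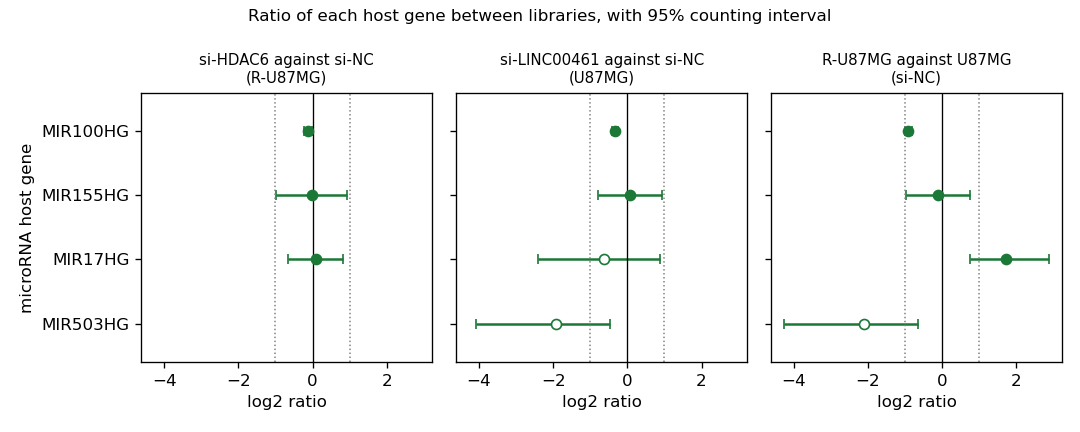
Log2 ratio (horizontal axis) of the 4 hosts with at least 10 fragments in a comparison, for the 3 comparisons, with exact 95% counting intervals. Filled points passed the mean of 1 CPM, open points did not, and dotted lines mark 2-fold; MIR17HG in R-U87MG against U87MG, at 1.71, is the one filled point beyond them.

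**Figure D4:**
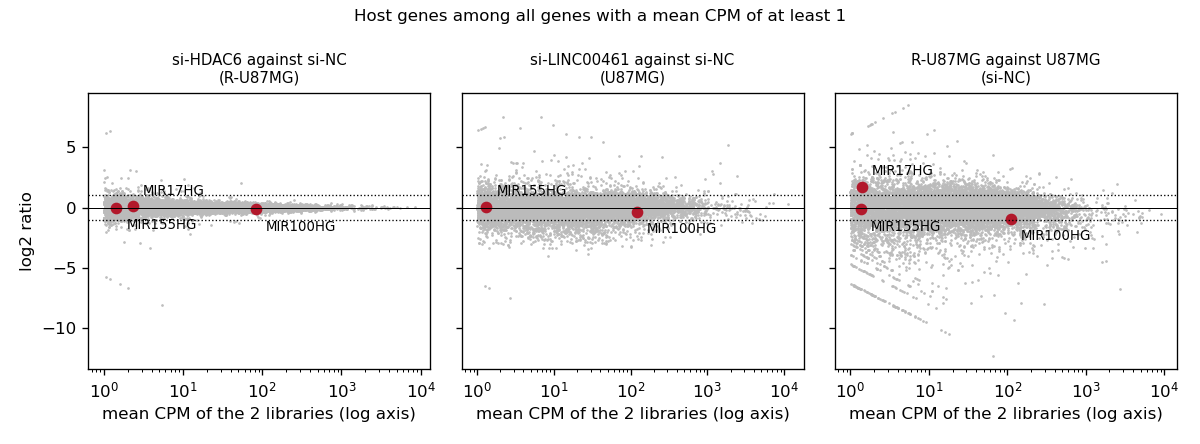
Log2 ratio (vertical axis) against mean CPM (horizontal log axis) for all genes averaging 1 CPM or more (grey) and the hosts among them (red), for the 3 comparisons. The hosts lie within the cloud of all genes each time, and dotted lines mark 2-fold.

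The factors and markers that are known to go with single hosts were looked at by list. Of the transcription factors linked to MIR17HG, MYC stood at 1957, 1470, 1449 and 297 fragments in R-U87MG si-NC, R-U87MG si-HDAC6, U87MG si-NC and U87MG si-LINC00461. Its log2 ratio was −2.10 (−2.28 to −1.92) after LINC00461 depletion and 0.44 (0.34 to 0.54) in R-U87MG against U87MG. E2F1 stood at 2031, 1502, 577 and 254 fragments, a log2 ratio of −0.99 (−1.22 to −0.78) after LINC00461 depletion and 1.82 (1.69 to 1.96) between the lines. E2F3, also a cell-cycle factor, had log2 ratios of 0.71 and 0.90 in these comparisons, while MYCN and E2F2 had at most 7 fragments. MYC and E2F1 were lowest in U87MG si-LINC00461. MIR17HG was lowest there too, but on 6 fragments, with a log2 ratio of −0.64 (−2.41 to 0.87), so its place was not resolved. All 8 proliferation markers were also at least 2-fold lower in that library than in U87MG si-NC, against 8.17% of all genes, with a median log2 ratio of −2.63, and the median in R-U87MG against U87MG was 0.89. The part of proliferation in the MIR17HG values was not tested.

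HIF target genes, the company MIR210HG keeps under hypoxia, differed between the lines although MIR210HG could not be read. Of 12 such genes, 12 were at least 2-fold lower in R-U87MG si-NC than in U87MG si-NC, against 15.0% of all genes, with a median log2 ratio of −2.73. Among them EGLN3, at 1 against 180 fragments, passed the minimum of 1 CPM only through its U87MG level. CA9, a carbonic anhydrase, stood at 68 against 5408 fragments (−6.30, −6.68 to −5.97), and NDRG1, a stress-response gene, at 2675 against 60826 (−4.50, −4.56 to −4.45). KDM3A, a histone demethylase, differed least, at 832 against 2569 fragments (−1.62, −1.74 to −1.51). After LINC00461 depletion 0 were 2-fold higher and 2 of 12 were 2-fold lower, against 5.42% and 8.17% of all genes. The list median there was −0.45, against −0.003 for all genes. After HDAC6 depletion 0 of 11 differed 2-fold, against 1.44% of all genes.

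NF-κB and AP-1 genes, which go with MIR155HG in immune cells, were counted next. In R-U87MG against U87MG, 1 of 9 was at least 2-fold higher (FOSL1, an AP-1 subunit, log2 ratio 1.07) and 3 of 9 were lower, against 11.2% and 15.0% of all genes. The lowest was ICAM1, an adhesion receptor, at 163 against 2777 fragments (−4.08, −4.32 to −3.86). After LINC00461 depletion 2 of 9 were higher and 1 of 9 lower, against 5.42% and 8.17% of all genes. After HDAC6 depletion 0 of 9 differed 2-fold, against 1.44% of all genes. The list ran from 0.13 for FOSL1 to 0.63 for RELB, with a median of 0.27. The 5th and 95th percentiles of all genes were −0.42 and 0.44, with a median of −0.01. The share of all genes with such ratios was not counted, so no response is read from the list. MIR155HG had the intervals given above in these comparisons, each spanning 0.

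Of the TGF-β response genes, 2 of 8 were higher and 1 of 8 lower in R-U87MG against U87MG, where 11.2% of all genes were higher and 15.0% lower. For either siRNA 0 of 8 differed 2-fold, against 1.44% of all genes after HDAC6 depletion and 13.6% after LINC00461 depletion. Of the p53 target genes, 1 of 10 was higher in R-U87MG (TP53I3, an oxidoreductase, at 432 against 86 fragments, a log2 ratio of 2.33 with an interval wholly above 0), a count close to the 11.2% of all genes. After either siRNA 0 of 10 differed 2-fold, against the same 1.44% and 13.6% of all genes.

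The machinery that would process the hairpins mostly differed less than 2-fold. Of 18 genes, 17 could be compared. After HDAC6 depletion 0 differed 2-fold, against 1.44% of all genes, with a median log2 ratio of 0.01. After LINC00461 depletion 0 differed 2-fold, against 13.6% of all genes, with a median of −0.04. Ratios there ran from −0.53 for TNRC6B to 0.82 for TNRC6C, and TNRC6B was lowest between the lines at −0.89. DROSHA stood at 1460, 1140, 929 and 835 fragments, DICER1 at 4333, 3284, 3901 and 3121, and AGO2, the Argonaute that can cut its target, at 1646, 1457, 1823 and 2464. Between the lines 1 of 17 passed 2-fold, against 26.2% of all genes. This was LIN28B, an RNA-binding protein that blocks let-7 processing and is itself a let-7 target, at 415, 312, 53 and 48 fragments (R-U87MG against U87MG 2.96, 2.56 to 3.41). LIN28B was higher in both libraries of the line in which MIR100HG, one of the let-7a hosts, was lower. A link between LIN28B and MIR100HG was not tested, and let-7 itself was not measured.

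Genes known as targets of the microRNAs were counted in the same way. After HDAC6 depletion 0 genes of the 7 target lists differed 2-fold, against 1.44% of all genes. After LINC00461 depletion, where 5.42% of all genes were higher and 8.17% lower, 0 of 6 compared targets of the miR-17 to miR-92 cluster differed 2-fold, with a list median of 0.07. The counts of 2-fold lower genes there were 1 of 5 for miR-22, 0 of 8 for miR-31, 2 of 10 for miR-100, let-7a and miR-125b, 1 of 6 for miR-155, 1 of 9 for miR-210 and 3 of 8 for miR-424 and miR-503. In the same order 0, 0, 1, 0, 1 and 0 genes were 2-fold higher. The largest of these were cell-cycle genes, with PLK1, a mitotic kinase, at 224 against 1803 fragments (−2.82, −3.03 to −2.62) and CDK6, a G1 kinase, at 621 against 3278 (−2.21, −2.34 to −2.09).

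In R-U87MG against U87MG, where 11.2% of all genes were 2-fold higher and 15.0% lower, 2 of 6 targets of the miR-17 to miR-92 cluster were 2-fold higher and 2 of 6 lower. E2F1 was at the top of that list at 1.82, and THBS1, an inhibitor of vessel growth, was at the bottom at −3.63 (80 against 1000 fragments). For miR-424 and miR-503, 4 of 8 targets were 2-fold higher and 0 of 8 lower, with a median log2 ratio of 0.92. The highest was CDC25A, a cell-cycle phosphatase, at 1278 against 399 fragments (1.68, 1.52 to 1.85), and CCND1, cyclin D1, stood at 42020 against 15102 (1.48, 1.45 to 1.51). These are also genes of proliferating cells, and the proliferation markers above moved the same way in this comparison. The part of proliferation in these target levels was not tested. The target lists of miR-22, miR-31, miR-100 with let-7a and miR-125b, miR-155 and miR-210 had medians of −0.36, −0.25, 0.44, −0.32 and 0.19. Their counts of 2-fold higher genes were 1, 0, 2, 0 and 0, and of 2-fold lower genes 0, 2, 0, 0 and 1.

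Other genes carry hairpins with the same seeds, so the hosts were set beside them. The RefSeq table places such hairpins in 20 genes outside the set, of which 13 could be compared, and those named were chosen after values were seen. For MIR17HG 3 could be compared, with median log2 ratios of −0.44 after LINC00461 depletion and −0.63 in R-U87MG against U87MG. MCM7, a subunit of the replication helicase whose intron holds miR-106b, miR-93 and miR-25, shares seeds with MIR17HG. MCM7 stood at 4362, 3002, 2170 and 599 fragments, a log2 ratio of −1.67 (−1.80 to −1.54) after LINC00461 depletion and 1.01 (0.94 to 1.09) in R-U87MG against U87MG. TMEM245, a transmembrane protein gene that holds miR-32, went the other way at 3705, 2855, 5799 and 7803 (0.62, 0.57 to 0.66, and −0.64, −0.70 to −0.58), and KCNT2, a potassium channel gene, stood at 36, 19, 56 and 36 (−0.44 and −0.63). SMC4, a condensin subunit that hosts miR-15b and miR-16-2, has the seed of miR-424-5p. SMC4 stood at 7075, 4449, 3738 and 939 fragments, with log2 ratios of −1.81 (−1.91 to −1.70) and 0.92 (0.87 to 0.98) in these comparisons. DLEU2, the long noncoding RNA that hosts miR-15a and miR-16-1, stood at 75, 62, 44 and 14, with log2 ratios of −1.43 (−2.45 to −0.57) and 0.77 (0.22 to 1.34). POLM, a DNA polymerase gene that completes the 3 compared for this seed, stood at 223, 190, 290 and 198 (−0.36 and −0.37).

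Of the 7 compared genes that share seeds with MIR100HG, 3 were at least 2-fold lower in R-U87MG than in U87MG and 0 were higher, against 15.0% and 11.2% of all genes, with a median log2 ratio of −0.67. SPACA6, whose transcripts span the miR-99b, let-7e and miR-125a cluster, stood at 150, 108, 578 and 344 fragments, a log2 ratio of −1.94 (−2.21 to −1.68) in R-U87MG against U87MG. MIRLET7BHG, host of let-7a-3 and let-7b, stood at 59, 56, 274 and 214 (−2.20, −2.64 to −1.80), and MIR99AHG, host of the miR-99a, let-7c and miR-125b-2 cluster, at 125, 84, 163 and 70 (−0.38, −0.73 to −0.03). WDR82, a chromatin protein gene that holds let-7g, went the other way at 2915, 2016, 2527 and 3020 (0.21, 0.13 to 0.29). The log2 ratios of the other 3 were −1.13 for AC048341.1, −0.67 for HUWE1 and 0.04 for MIR4458HG.

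A further 55 annotated genes have names that begin with MIR and end in HG. Of these, 25 were listed at 0 in all 4 libraries (45.5%, against 66.6% of all annotated long noncoding RNAs). As for MIR22HG, a listed 0 can be a failed estimate, so no absence is read from these counts. Between 10 and 11 could be compared. After HDAC6 depletion 0 of 10 differed 2-fold, against 1.44% of all genes, and the median log2 ratio was 0.01. The highest ratios were those of MIRLET7BHG (0.32) and MIR4453HG (0.23), and the lowest were those of MIR34AHG, host of a p53-responsive microRNA (−0.28), and MIR4458HG (−0.20).

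After LINC00461 depletion 1 of 10 was at least 2-fold higher and 3 of 10 were lower, against 5.42% and 8.17% of all genes, with a median log2 ratio of −0.83. MIR4697HG, at 1075 against 265 fragments, had a log2 ratio of 2.21. MIR29B2CHG, at 43 against 103 fragments, had one of −1.06, and MIR4435-2HG, at 194 against 459, one of −1.05. MIR155HG and MIR100HG were among the 5 highest of the 12 host genes compared there.

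In R-U87MG against U87MG 0 of 11 were 2-fold higher and 5 of 11 were lower, against 11.2% and 15.0% of all genes, with a median log2 ratio of −0.38. MIR29B2CHG stood at 3 against 103 fragments, a log2 ratio of −4.88 with an interval from −7.40 to −3.51, and MIRLET7BHG was next. The R-U87MG count of MIR29B2CHG is at the floor of 3 fragments, and MIR29B2CHG passed the minimum of 1 CPM through U87MG. Its place among the 5 lower genes is therefore not independent of the direction of its ratio.

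**Figure D5:**
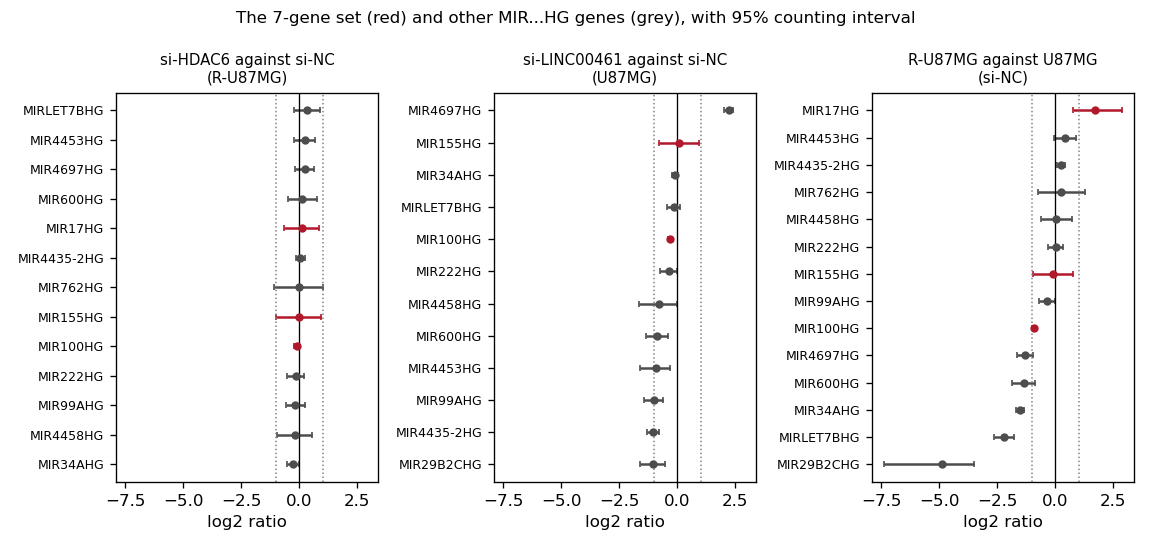
Log2 ratio (horizontal axis) with exact 95% counting intervals of the hosts (red) and other genes named MIR...HG (grey) that average 1 CPM or more, ordered by ratio in each comparison. Dotted lines mark 2-fold. In the R-U87MG against U87MG panel MIR17HG is at 1.71 and MIR29B2CHG at −4.88. MIR17HG passed the minimum through its R-U87MG level and MIR29B2CHG through its U87MG level.

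The detected genes within 100 kb of the detected hosts were set beside them. UBASH3B, a phosphatase gene 98954 bases from MIR100HG, stood at 1534, 938, 655 and 733 fragments and was higher in R-U87MG than in U87MG (1.23, 1.10 to 1.37), the reverse of MIR100HG. MRPL39, a mitochondrial ribosomal protein gene 10488 bases from MIR155HG, stood at 372, 315, 336 and 222 and did not separate the lines either (0.15, −0.07 to 0.37). JAM2, a junctional adhesion molecule 64104 bases from MIR155HG, stood at 916, 654, 2087 and 2485 (−1.18, −1.30 to −1.07), lower in R-U87MG. GPC5, a glypican 44028 bases from MIR17HG, stood at 30, 24, 60 and 74 (−0.98, −1.68 to −0.34), again the reverse of its host neighbour.

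Among the 13347 genes averaging 1 CPM or more over the 4 libraries, the patterns closest to each detected host were measured as the distance between centred log2 CPM values over the 4 libraries. For MIR17HG these were CENPL, a centromere protein, at a distance of 0.0912 and DNA2, a replication nuclease and helicase, at 0.124. For MIR100HG they were SMS, spermine synthase, at 0.0486 and ALAD, a haem synthesis enzyme, at 0.0547. For MIR155HG they were DESI1, a deSUMOylating isopeptidase, at 0.0183 and ADNP2, a homeobox zinc finger protein, at 0.0225. Within a distance of 0.2 there were 11, 121 and 709 genes for MIR17HG, MIR100HG and MIR155HG. With 4 libraries such likeness is a description of the levels only.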

How the data were processed

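RNA-seq was analysed from 4 libraries, 1 per condition. Per the labels the submitters' processing notes name bcl2fastq, Trimmomatic 0.36, HISAT2 and GRCh38.p13. The study's methods give a strand-specific kit. The counting program, its annotation and whether it used strand are not given in the sources used here, so reads of MIR22HG and of WDR81 on the opposite strand may not be told apart. As deposited, each value is an estimated count of an Ensembl gene that the authors had scaled by a factor common to its library. The factors are 0.869, 1.15, 0.939 and 1.06 for R-U87MG si-NC, R-U87MG si-HDAC6, U87MG si-NC and U87MG si-LINC00461, and each comparison pair was scaled separately. Each value was divided by its factor, after which between 93.4% and 94.1% of values above 0 lay within 0.02 of a whole number, and all were rounded to whole fragments. Of the 58226 IDs, 57888 are in GENCODE 29, which gave names, positions and biotypes; a further 13 IDs were missing from a file and not used.

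The 2 libraries of a comparison were normalized with TMM (edgeR 4.0.16, R 4.3.3). Log2 ratios used a pseudocount of 0.5, which understates the change of low genes. The comparisons cover genes averaging 1 CPM or more, with 2-fold as the limit for a difference. Exact 95% Clopper-Pearson intervals and the floor of 3 fragments cover counting error only. Levels between genes were compared per merged exon length, except for the MIR100HG share of fragments and its rank by CPM. Other scalings (DESeq2 1.42.0 size factors, total counts, upper quartile), pseudocounts, filters, thresholds and thinning to 12596072 fragments were tried. The calculation was tested on simulated counts with 200 changed genes. These were drawn only from genes with more fragments than any host except MIR100HG, and varied by counting error only. The simulation therefore does not cover the low hosts. Shared 50-base stretches were counted across GENCODE transcripts, and mature microRNA sequences came from RefSeq (GRCh38.p14), in which all 15 precursors were matched. Sequences were read on the strand of the gene.

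The 7 hosts and the gene lists were chosen with earlier results of these data known, and the spliceosome and polymerase list after its values were seen. Named genes are the hosts, their precursors and neighbours within 100 kb, the extremes of the lists and of other MIR...HG genes, and the 2 closest patterns per detected host. The hosts of microRNAs with a shared seed, and other genes named from the lists beside their extremes, were chosen after values were seen.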

Additional observations from a re-analysis of the deposited data

How the results depend on the processing

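With 1 library per condition the limits below are those of single libraries. Of 73 recomputed ratios of hosts with at least 10 fragments, 72 lay within the 95% counting interval of the reported value. The exception was MIR100HG in R-U87MG against U87MG, which was −0.65 in place of −0.91 with scaling by total counts. The intervals of MIR17HG, MIR155HG and MIR503HG are so wide that lying within them says little. The sign changed in 4 cases, each with an interval that spans 0. These were MIR17HG after HDAC6 depletion when thinned (0.00), and MIR155HG after HDAC6 depletion with a pseudocount of 5 (0.06), after LINC00461 depletion when thinned (−0.44) and in R-U87MG against U87MG with total counts (0.15). Of 32 recomputed counts of hosts past 2-fold, 27 were the same. With no filter on low counts the count was 1 (MIR503HG) in place of 0 after LINC00461 depletion. It was 4 in place of 1 in R-U87MG against U87MG, where MIR31HG, MIR210HG and MIR503HG joined MIR17HG. MIR31HG rests there on 0 against 1 fragment and MIR210HG on 0 against 2, with intervals that span 0. In R-U87MG against U87MG the count was 0 with a mean CPM of at least 5, 0 when the interval had to lie wholly beyond 2-fold, and 2 (with MIR100HG) at 1.5-fold. The shares of all genes without the filter and at 1.5-fold were not counted, so nothing is read from those counts. The authors' deposited scaling, added after the data were seen, changed no count. No paired analysis was possible because each condition has 1 library and the labels give no replicate numbers. Depth is low for MIR17HG, MIR155HG and MIR503HG, with 4 to 37 fragments in a library, and lower for MIR31HG and MIR210HG, with 0 to 3. The MIR503HG ratio after LINC00461 depletion was −0.91 when thinned, and −1.23 with a pseudocount of 5, in place of −1.93.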
